A study of Mus musculus with 12 samples.

Results

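The genes described here are 7 protein-coding genes best known from the liver: Apoh, Mup3, Mup21, Mup20, Abcb11, Sult2a5 and Sult2a1. They are 7 of the 35666 genes in the deposited gene table. They were taken by name because some of them were known to be higher in knockout than in heterozygous libraries of this same comparison. The fold changes, standard errors and calls given for them come from the fit across all genes and only restate that choice: they describe these libraries and test nothing. The name "genes rising in knockout" held for 5 of the 7: the libraries of both genotypes overlapped for Mup20 and Sult2a1.

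The libraries came from gonocytes, the early male germ cells found before spermatogonia form. All animals carried the Mvh-Venus transgene, in which a germ cell promoter drives a fluorescent protein. The het group was Morc1 (+/-) and the KO group was Morc1 (-/-), both from testis at postnatal day 0 (P0), with 3 libraries each. The het animals thus carried 1 disrupted Morc1 allele and are not wild type. The labels do not say whether the libraries of a genotype came from separate animals, so p-values measure only the spread between these libraries.

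MORC1 belongs to a family of nuclear ATPases and is known for its part in the silencing of transposable elements (TEs) in male germ cells. The liver secretes plasma proteins such as apolipoprotein H, exports bile salts into bile, attaches sulfate to steroids and bile acids, and in mice secretes major urinary proteins, which pass into urine and carry pheromones. These jobs are normally tied to hepatocytes.

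The gene table held between 28363683 and 32816861 reads per library and the TE table between 1974504 and 3703419. Morc1 itself had 7248, 7485 and 4126 normalized counts in het replicates 1, 2 and 3 and 1360, 1343 and 1794 in KO replicates 1, 2 and 3. It was lower in KO (log2 fold change -2.03, SE 0.27, limma with Benjamini-Hochberg adjusted p = 0.0109). This adjusted p rose to 0.0519 when het replicate 1 was left out, to 0.0990 when KO replicate 1 was, to 0.0623 when KO replicate 3 was, and to 0.0890 with limma without a trend. Of 12 germ cell markers none was called different (limma, none with an unadjusted p under 0.05), and their counts summed to at least 136799 in each library. Leydig cell genes were present in every library and highest in het replicate 3, where their 5 counts summed to 24921 against at most 1079 in each other library. The 8 Sertoli cell genes all had negative log2 fold changes (median -0.69, none called by limma, 4 with an unadjusted p under 0.05). In RNA from bulk samples fewer cells of a type and less RNA per cell cannot be told apart. The part of these somatic genes in the results below was not tested.

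Some of the genes have close relatives in the genome, and the letters show how close. The last 90 coding bases of Mup3, Mup21 and Mup20 are shown because they are much alike although the genes behaved very differently. They are read from the GENCODE M21 transcripts 5′ to 3′. How reads from such stretches were assigned was not examined. Capitals mark bases that differ from Mup3, which are 1 in Mup21 and 5 in Mup20.
Mup3: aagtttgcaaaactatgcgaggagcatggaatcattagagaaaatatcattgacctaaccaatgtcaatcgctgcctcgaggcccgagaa
Mup21: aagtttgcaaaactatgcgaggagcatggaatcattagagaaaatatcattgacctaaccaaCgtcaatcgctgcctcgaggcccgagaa
Mup20: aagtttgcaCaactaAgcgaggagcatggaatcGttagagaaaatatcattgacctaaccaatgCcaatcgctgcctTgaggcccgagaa
The first 90 coding bases of 3 Sult2a genes are shown for the same reason, with capitals at bases that differ from Sult2a5. There are 2 in Sult2a4 and 1 in Sult2a1.
Sult2a5: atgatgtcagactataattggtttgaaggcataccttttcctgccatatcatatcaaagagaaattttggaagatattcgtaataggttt
Sult2a4: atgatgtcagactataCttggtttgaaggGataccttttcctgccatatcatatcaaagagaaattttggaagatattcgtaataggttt
Sult2a1: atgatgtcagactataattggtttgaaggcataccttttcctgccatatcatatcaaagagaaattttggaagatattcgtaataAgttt
Over the whole coding sequence of 855 bases, Sult2a4 differed from Sult2a5 at 53 bases (93.8% identity) and Sult2a1 at 44 bases (94.9%). The Mup21 transcript was 95.0% identical to Mup3, and Mup20 was closest to Mup4 at 90.6%. With a limit of 90% identity over at least 50% of the transcript, Mup20 had 14 such relatives, Sult2a5 and Sult2a1 had 4 each, and Mup3 and Mup21 had 1 each. Sult2a4 had 3 such relatives and the pseudogene Mup-ps21 had 2. Counts of these 5 genes, of Sult2a4 and of Mup-ps21 are uncertain. How the authors treated reads that match several places is not given in the sources used here. Apoh and Abcb11 have no such copy. The closest transcript to Abcb11 was Abcb1a, with 71.4% identity over 8.6% of its length.

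Read by library, 4 of the 7 genes were far higher in KO, 1 was higher at a very low level, and 2 were not separated. Of the 5 with a mean of at least 10 normalized counts, 4 were called higher in KO and Sult2a1 was not. Over all genes tested 0.431% were called higher in KO and 0.0423% lower (limma, adjusted p under 0.05), which is printed as background and not as a test, since the genes were picked from this contrast. In 5 of the 7, every KO library lay above every het library, as it did for 7.17% of all genes tested, while 5.57% had every KO library below. Mup21 and Mup20 lay under the minimum mean and were not tested.

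**Figure D1:**
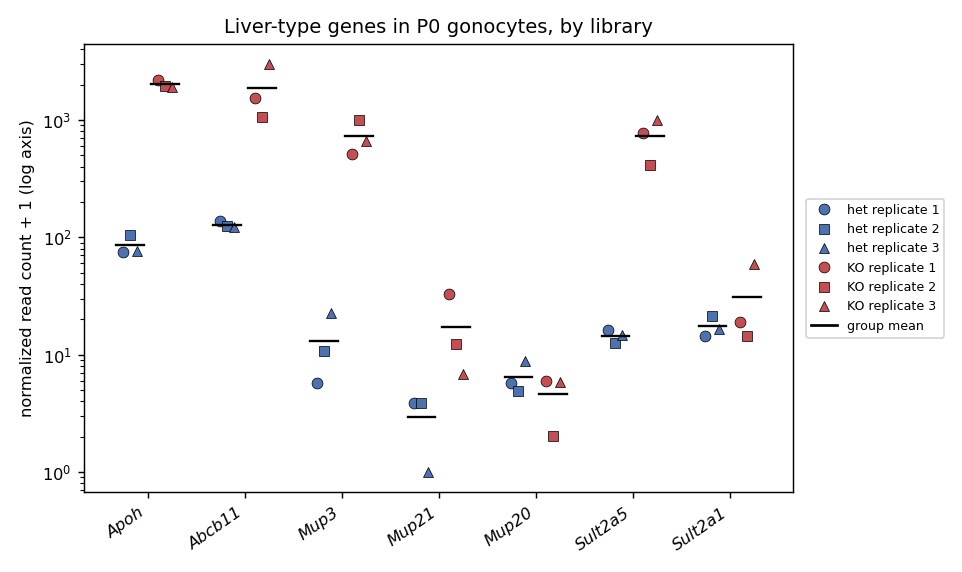
Normalized read count + 1 (log axis) of the 7 liver-type genes in the 3 het (blue) and 3 KO (red) libraries at P0, with marker shape giving the replicate number and bars the group means. Apoh, Abcb11, Mup3, Mup21 and Sult2a5 have every KO library above every het library, and Mup20 and Sult2a1 overlap.

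Apoh encodes apolipoprotein H, a plasma glycoprotein that binds negatively charged phospholipids. The gene (ENSMUSG00000000049) lies at chr11:108343354-108414396 on the plus strand (GRCm38). It had 74.4, 103 and 76.1 normalized counts in het replicates 1, 2 and 3, and 2212, 1929 and 1924 in KO replicates 1, 2 and 3. The 3 KO libraries were nearly level, with a coefficient of variation of 8.16%, and stood far above all het libraries. The KO mean was 2022 ± 165 and the het mean 84.6 ± 16.3 (SD, n = 3 each), a 23.9-fold difference and a log2 fold change of 4.58 (SE 0.25). Per kb of exon, Apoh had the highest KO level of the 7, at 1268 normalized counts per kb against 53.1 in het. At that level it stood above 94.2% of the 25967 tested genes with an exon length, and in het above 44.1%.

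Apoh has more than one annotated start. The transcript Apoh-202 begins at the gene start, whereas Apoh-201, the only one to reach the gene's end, begins 51939 bp further in. The deposited counts are per gene and do not tell these starts apart. At its 5′ end the gene overlaps the start of Prkca, a protein kinase C gene on the opposite strand. Prkca had 540 to 821 normalized counts in het and 311 to 610 in KO, and was not called different (log2 fold change -0.63, SE 0.31, adjusted p = 0.779).

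The major urinary protein genes lie in a cluster on chromosome 4 and encode lipocalins, small secreted proteins with a pocket for volatile ligands. Mup3 (ENSMUSG00000066154, chr4:62083476-62087342, minus strand) had 4.77, 9.66 and 21.5 normalized counts in het replicates 1, 2 and 3. In KO replicates 1, 2 and 3 it had 508, 1006 and 663. All KO libraries stood far above the highest het library, and KO replicate 2 was the highest. The KO mean of 726 ± 255 was 60.7 times the het mean of 11.96 ± 8.58 (SD, n = 3 each), with a log2 fold change of 5.97 (SE 0.51). Without het replicate 3 the KO mean was 101 times the het mean. Per kb of exon the mean level was 680 in KO and 11.2 in het.

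Mup21 (ENSMUSG00000066153, chr4:62147932-62150863, minus strand), whose transcript is closest to Mup3, was seen in far fewer reads. It had 2.86, 2.90 and 0 normalized counts in het, from 3, 3 and 0 reads. In KO it had 31.7, 11.4 and 5.88, from 32, 11 and 6 reads. Every KO library was above every het library, and KO replicate 3 was separated by few reads. Against a floor of 3 reads in each het library the KO mean was at least 5.63-fold higher, and without KO replicate 1 at least 2.98-fold higher. Per kb of exon, the KO mean of Mup21 was 24.1 against 680 for Mup3.

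Mup20, whose product is the male urinary pheromone known as darcin, did not follow. The gene (ENSMUSG00000078672, chr4:62050234-62054158, minus strand) had 4.77, 3.86 and 7.80 normalized counts in het and 4.95, 1.03 and 4.90 in KO. These are 1 to 8 reads in each library, and the genotypes overlapped. The KO mean of 3.63 ± 2.25 was 0.66 times the het mean of 5.48 ± 2.06 (SD, n = 3 each). At this depth no difference was detectable. Mup20 lies 29318 bp downstream of Mup3.

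GENCODE M21 lists 49 Mup genes and pseudogenes, of which 22 are protein-coding, and 9 were in the gene table. Besides the 3 genes above, 2 of the other 6 had a mean of at least 10, and 1 was called higher in KO. That was the pseudogene Mup-ps21, which had 0.95, 6.76 and 0 normalized counts in het and 57.4, 95.1 and 80.3 in KO (log2 fold change 4.96, SE 0.86, limma adjusted p = 0.0416). Its KO mean was 30.2 times its het mean and the genotypes did not overlap. The het mean rests on the 7 reads of het replicate 2, and without that library the KO mean was at least 26.8-fold higher against 3 reads in each het library. This call was lost in 9 of 14 alternative settings, among them the edgeR test (adjusted p = 0.0597), the fit with a replicate block (0.0800) and the fits without each library other than het replicate 2 (0.0548 to 0.268). Mup6 had 7.73 to 28.6 normalized counts in het and 13.4 to 38.2 in KO (log2 fold change 0.74, SE 0.72, adjusted p = 0.909). The other Mup genes and pseudogenes measured, Mup4, Mup5, Mup-ps17 and Mup-ps23, had at most 21.8 normalized counts in any library, with overlapping genotypes.

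Abcb11 encodes the bile salt export pump, the transporter that moves bile salts from hepatocytes into bile. The gene (ENSMUSG00000027048) lies at chr2:69238282-69342616 on the minus strand. It had 136, 125 and 121 normalized counts in het replicates 1, 2 and 3, and 1529, 1063 and 2979 in KO replicates 1, 2 and 3. The het libraries were nearly level, with a coefficient of variation of 6.33%, whereas the KO libraries differed 2.80-fold from lowest to highest. The KO mean was 1857 ± 999 and the het mean 127 ± 8.06 (SD, n = 3 each), which is 14.6-fold and a log2 fold change of 3.72 (SE 0.36). Per kb of exon the KO mean was 361, less than that of Apoh, Mup3 or Sult2a5, and the het mean was 24.7.

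An antisense gene, Gm13613, lies inside Abcb11 on the opposite strand. It had 1 read in all het libraries together and 14, 42 and 49 reads in KO replicates 1, 2 and 3. Its KO mean was at least 12.1-fold higher against 3 reads in each het library, but it was not called (log2 fold change 4.67, SE 1.02, adjusted p = 0.117). Without strand in the counting, which is not given in the sources used here, reads of a gene and its antisense partner cannot be told apart. Abcb11 had 1545, 1029 and 3040 reads in the same KO libraries.

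The Sult2a genes on chromosome 7 encode sulfotransferases that move a sulfate group onto hydroxysteroids and bile acids. Sult2a5 (ENSMUSG00000078799, chr7:13623967-13670807, plus strand) had 15.3, 11.6 and 13.7 normalized counts in het replicates 1, 2 and 3. In KO replicates 1, 2 and 3 it had 781, 414 and 998. The genotypes were far apart, with KO replicate 2 the lowest KO library. The KO mean was 731 ± 295 and the het mean 13.5 ± 1.84 (SD, n = 3 each), a 54.2-fold difference and a log2 fold change of 5.57 (SE 0.40). Per kb of exon, Sult2a5 and Mup3 had almost the same mean levels, 699 and 680 in KO and 12.9 and 11.2 in het.

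Sult2a1 (ENSMUSG00000078798, chr7:13796246-13837409, minus strand) did not separate the genotypes. Its het libraries had 13.4, 20.3 and 15.6 normalized counts, and its KO libraries 17.8, 13.4 and 58.8. Only KO replicate 3 stood above the het libraries. The log2 fold change was 0.56 (SE 0.68), was not called, and turned to -0.06 without KO replicate 3. The whole coding sequences of Sult2a1 and Sult2a5 were 94.9% identical, yet the KO mean of Sult2a5 was 699 per kb of exon and that of Sult2a1 was 29.4.

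Of 12 Sult2a genes and pseudogenes in GENCODE M21, 9 were in the gene table, and 3 of the 7 not yet described had a mean of at least 10. Sult2a4 was called higher in KO. It had 47.7, 42.5 and 46.8 normalized counts in het and 358, 235 and 429 in KO, a 7.46-fold difference (log2 fold change 2.83, SE 0.34, limma adjusted p = 0.00881). The genotypes did not overlap, and KO replicate 2 was again the lowest KO library. The adjusted p was 0.0825 without KO replicate 1 and 0.0636 without KO replicate 3. Sult2a3 was not called, with 64.8 to 134 normalized counts in het and 59.9 to 101 in KO (log2 fold change -0.13, SE 0.41, adjusted p = 0.977), nor was Sult2a-ps4 (log2 fold change 1.13, SE 0.65, adjusted p = 0.826). The remaining members of the family, Sult2a2, Sult2a6, Sult2a7 and Sult2a-ps3, had at most 22.5 normalized counts in any library.

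**Figure D2:**
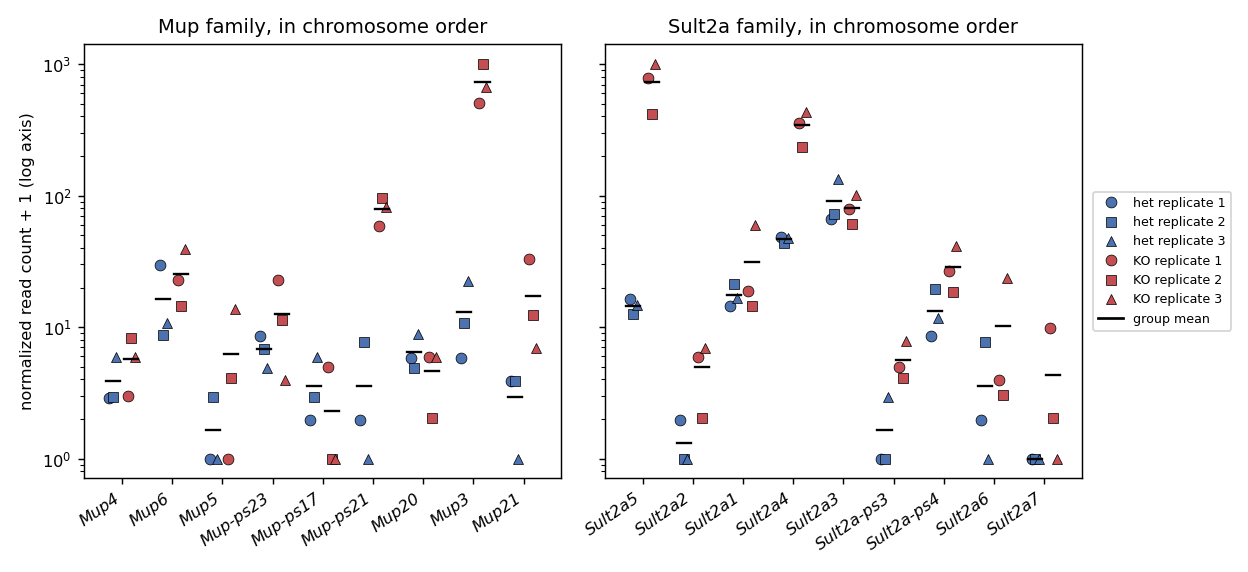
Normalized read count + 1 (log axis) of the measured Mup genes (left) and Sult2a genes (right) in chromosome order, in the 3 het (blue) and 3 KO (red) libraries, with bars at group means. Mup3 and Mup-ps21 stand apart in the Mup cluster and Sult2a5 and Sult2a4 in the Sult2a cluster, while Mup20 and Sult2a1, which lie between them, overlap.

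The order of the KO libraries was not the same for every gene. KO replicate 2 was the lowest and KO replicate 3 the highest for Abcb11, Sult2a5, Sult2a1 and Sult2a4. For Mup3, KO replicate 2 was the highest, and for Apoh the 3 libraries differed 1.15-fold. By mean normalized count per kb in KO, the order was Apoh, Sult2a5, Mup3, Abcb11, Sult2a1, Mup21 and Mup20. Among neighbours in this order the KO libraries overlapped between Sult2a5 and Mup3, between Mup3 and Abcb11, and between Sult2a1 and Mup21. Apoh lay above Sult2a5, Abcb11 above Sult2a1 and Mup21 above Mup20 in every KO library.

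The genes that shared the pattern most closely over the 6 libraries were sought among all tested genes, by Pearson's r with the average centred log2 profile of the 7. The 5 highest were Tsga13 (r = 0.9998), the long noncoding RNAs 1700030N03Rik (0.9987) and AC141429.2 (0.998), Hsd17b11 (0.997) and the pseudogene C87114 (0.997). These r values are a description over 6 libraries that share the same genotype split. Tsga13, a testis gene, had 37.1 to 38.6 normalized counts in het and 161 to 238 in KO. AC141429.2 and C87114 had 0 reads in every het library, and 84 to 269 and 56 to 91 reads in the KO libraries. Hsd17b11, which encodes a hydroxysteroid dehydrogenase, differed little in size, with 198 to 200 normalized counts in het and 281 to 296 in KO (adjusted p = 0.776).

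The genes next to the 7 were read in the same way. Within 100 kb lay 18 other genes of the table, and in 8 of them every KO library was above every het library, while the other 10 overlapped. Of 11 tested by limma, 4 had every KO library above every het library, against 7.17% of all genes tested, and 2 were called higher, against 0.431%. None was called lower, and the median log2 fold change of the 11 was 0.13 against -0.02 over all genes. The 8 were Mup-ps21, Sult2a4 and Sult2a2 of the same families, the pseudogenes Zbed4-ps1 and Kat6b-ps1 inside Sult2a5, Gm13613 and Gm13614 inside Abcb11, and Gm12909, an antisense gene 946 bp upstream of Mup3. The gene table lists genes with at least 10 reads over the 6 libraries, so a gene without het reads had to have them in KO. Gm13614 and Gm12909 had 0 het reads, and Gm13613 and Sult2a2 had 1 each. No share over all listed genes was counted for the 8 of 18, which only describe these libraries. Only Mup-ps21 and Sult2a4 were called, and their counts carry the uncertainty from close relatives given above. The 7 tested protein-coding neighbours outside these families overlapped between genotypes. Near Abcb11, G6pc2, which encodes a glucose-6-phosphatase subunit, had a log2 fold change of 0.05 (SE 0.51, limma adjusted p = 0.993). Spc25, a kinetochore gene further along, had 0.22 (SE 0.25, adjusted p = 0.926), and Lrp2 on the other side had 0.13 (SE 0.30, adjusted p = 0.965). Cep112, a centrosome gene 10796 bp past the end of Apoh, had 0.01 (SE 0.26, adjusted p = 0.997). Zfp37, a zinc finger gene 38677 bp upstream of Mup21, had -0.15 (SE 0.29, adjusted p = 0.961). Zbed4-ps1, a pseudogene inside Sult2a5 on its strand, had 0, 3.86 and 7.80 normalized counts in het and 37.6, 62.0 and 103 in KO, with no overlap, but was not called (log2 fold change 4.18, SE 0.90, adjusted p = 0.109).

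The copies of TEs around the 7 genes were then read from the TE table, which lists a copy by its position, strand and length and gives no family name. It lists copies with at least 10 reads over the 6 libraries, so a copy with 0 reads in 1 genotype had to be high in the other. Within 100 kb of any of the 7 genes lay 176 listed copies, and 29 had a mean of at least 10. Of these, 12 were called higher in KO and none lower, and in 15 every KO library lay above every het library. Over all 49781 copies tested, 15.6% were called higher, 0.735% were called lower, 22.8% had every KO library above every het library and 7.58% had every KO library below. The count of 12 fell to 5 without KO replicate 1, to 7 without KO replicate 2 and to 7 without KO replicate 3. Windows of neighbouring genes overlap, so copies in the Mup and Sult2a clusters count toward more than 1 gene.

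The copies were unevenly spread. Apoh had 44 listed copies and 6 tested, none called higher. Abcb11 had 41 listed and 7 tested, 1 called higher. In the windows of the 3 Mup genes together 35 copies were listed, 4 tested and 3 called higher, and in those of both Sult2a genes 56 were listed, 12 tested and 8 called higher. By length, 6 of 18 tested copies of up to 500 bp were called higher, none of 4 longer ones of up to 1000 bp, 4 of 4 over 1000 and up to 5000 bp, and 2 of 3 over 5000 bp. Over all tested copies these classes had 3.73%, 7.14%, 16.9% and 58.3% called higher. No listed copy lay over an annotated gene start of the 7.

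**Figure D3:**
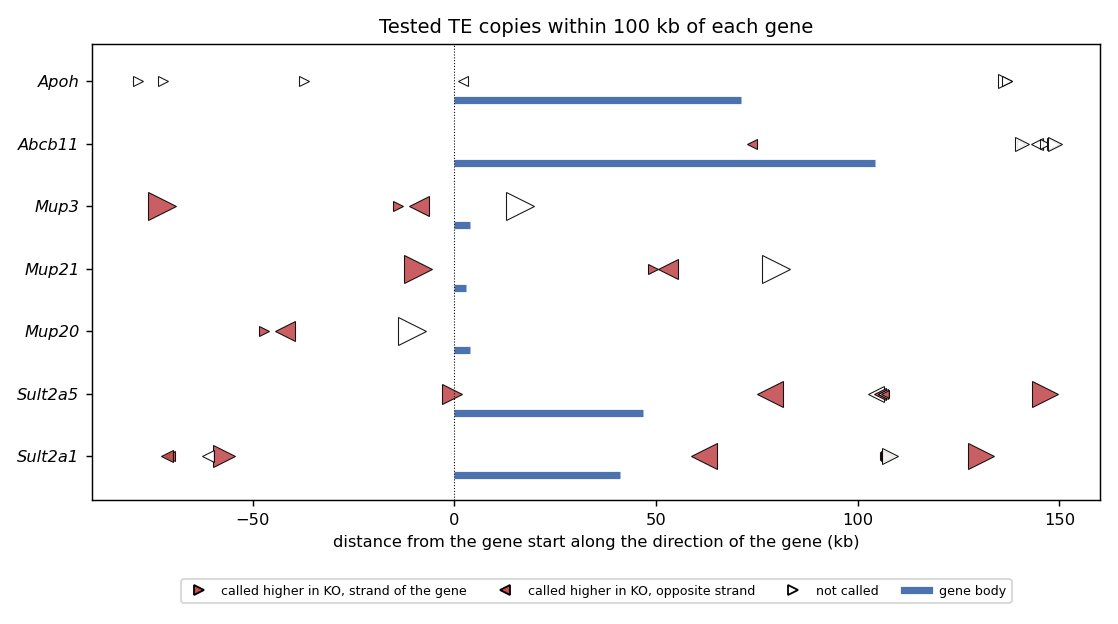
Tested TE copies within 100 kb of each gene, by the distance in kb of their nearest base from the gene start along the direction of the gene (negative is upstream), with blue bars for gene bodies. Triangles pointing right lie on the strand of the gene, filled ones were called higher in KO, and larger triangles stand for longer copies, not to scale; the copy closest to a gene start is the one 609 bp upstream of Sult2a5.

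Sult2a5 had the called copy nearest to a gene start. This copy of 1749 bp (chr7:13621610-13623358) lies on the strand of the gene and ends 609 bp before its start. It had 0 normalized counts in all het libraries and 14.3, 20.1 and 30.8 in KO replicates 1, 2 and 3. No het library held a read, and the KO mean was at least 6.94-fold higher against 3 reads in each het library. The copy was lowest in KO replicate 1, whereas the gene was lowest in KO replicate 2. Just upstream of it, a 599 bp copy on the same strand (chr7:13620959-13621557), below the minimum mean and picked out after its values were seen, had 0 in het and 9.54, 10.8 and 8.55 in KO. The promoter that follows is shown for this reason, as 250 bases before the RefSeq start of Sult2a5 (chr7:13623717-13623966, plus strand, GRCm38.p6). Capitals mark matches to TATAAA or to GTTAAT, a core of sites for the liver factor HNF1, on either strand.
Sult2a5: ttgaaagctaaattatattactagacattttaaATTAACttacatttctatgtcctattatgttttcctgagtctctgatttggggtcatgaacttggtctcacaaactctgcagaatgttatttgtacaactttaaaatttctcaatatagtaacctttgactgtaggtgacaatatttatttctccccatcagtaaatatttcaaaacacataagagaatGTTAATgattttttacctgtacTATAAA

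Inside Sult2a5, all 9 listed copies were intronic and none held a read in any het library. Summed over the 9, KO replicates 1, 2 and 3 had 62.0, 19.4 and 71.9 normalized counts, in the order of the gene itself: KO replicate 2 lowest and KO replicate 3 highest. Of the 9 copies, 4 lay on the strand of the gene and 5 on the other. Among all 298593 listed copies, 6.27% had no het read and 3.58% no KO read. Whether these counts are reads of the TE copies or of unspliced gene transcript was not tested.

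Summed over its whole window, Sult2a5 had 70.7, 117 and 122.7 normalized counts of TE copies in het and 452, 416 and 433 in KO. In normalized counts the KO libraries were nearly level here, whereas the gene differed 2.41-fold between them. In reads the copies summed to 474, 537 and 506 in KO replicates 1, 2 and 3. The TE and gene tables scale the libraries by different factors, which were 1.29 and 0.97 for KO replicate 2. Further called copies lay past the gene. A 4744 bp copy on the opposite strand (chr7:13702171-13706914), 78204 bp from the start, had 8.44, 24.7 and 10.5 normalized counts in het and 86.8, 75.9 and 98.4 in KO, a 5.98-fold difference that became 9.17-fold without het replicate 2 (log2 fold change 2.64, SE 0.50). A 408 bp copy (chr7:13729475-13729882) had a 5.99-fold difference and a 267 bp copy (chr7:13730597-13730863) a 3.78-fold one. These 3 copies also fall within 100 kb of the end of Sult2a1.

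Sult2a1 had more called copies than any other of the 7 genes, 7 of 11 tested, yet was not itself higher. The called copy nearest to its start, and the nearest tested, was 57076 bp upstream on its strand (chr7:13894485-13897478, 2994 bp). It had 7.38, 0 and 15.3 normalized counts in het and 97.3, 49.5 and 53.0 in KO, an 8.80-fold difference that became 18.0-fold without het replicate 3. A 5390 bp copy in an intron of Sult2a2, downstream of Sult2a1 (chr7:13770252-13775641), had 6.33, 10.1 and 7.67 in het and 55.3, 34.8 and 24.8 in KO. Both copies had every KO library above every het library. A pair of short copies of 361 and 406 bp, 70443 and 71203 bp upstream of Sult2a1, lay just past the end of Sult2a4. They had 14.4-fold and 10.1-fold higher KO means, the first 22.9-fold without het replicate 2, and KO replicate 2 was the lowest KO library in both, as it was for Sult2a4.

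Around Mup3, 3 of 4 tested copies were called higher. The nearest to the gene start (chr4:62096039-62097983, 1945 bp) lay 8697 bp upstream on the opposite strand, with 0 in every het library and 30.5, 19.4 and 24.0 in KO. Its KO mean was at least 7.85-fold higher against 3 reads in each het library. The next (chr4:62101386-62101702, 317 bp) lay 14044 bp upstream on the strand of the gene, with 2.11, 1.12 and 0.96 in het and 30.5, 68.1 and 54.7 in KO, at least 16.3-fold higher. This copy was lowest in KO replicate 1 and highest in KO replicate 2, as Mup3 was, whereas the nearer copy had the opposite order. Summed over the window of Mup3, the listed copies had 36.9, 20.2 and 66.1 normalized counts in het and 356, 366 and 367 in KO.

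For Mup21 the nearest called copy was 6396 bp long (chr4:62159815-62166210) and lay 8952 bp upstream on its strand. It had 4.22, 4.49 and 13.4 normalized counts in het and 92.5, 80.5 and 68.4 in KO, a 10.9-fold difference that became 18.5-fold without het replicate 3 (log2 fold change 3.44, SE 0.56). In normalized counts KO replicate 1 was highest and KO replicate 3 lowest, as for Mup21. In reads the copy had 97, 104 and 80 in KO replicates 1, 2 and 3, so KO replicate 2 was highest before scaling. The copy named next was lowest in KO replicate 2. A 2080 bp copy 911 bp upstream (chr4:62151774-62153853, opposite strand), below the minimum mean and picked out after its values were seen, had 0 in every het library and 26.7, 6.97 and 22.2 in KO. The tested copy nearest to Mup20, 10519 bp upstream on its strand and 6405 bp long (chr4:62064677-62071081), had 2.11, 0 and 3.83 in het and 6.68, 34.8 and 29.9 in KO and was not called.

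The promoters of Mup3 and Mup21 are shown side by side, because genes with nearly the same letters before their starts had very different KO levels. Each is the 250 bases before the RefSeq start (Mup3 chr4:62087318-62087567, Mup21 chr4:62150842-62151091, both minus strand, GRCm38.p6), with capitals at bases that differ between them.
Mup3: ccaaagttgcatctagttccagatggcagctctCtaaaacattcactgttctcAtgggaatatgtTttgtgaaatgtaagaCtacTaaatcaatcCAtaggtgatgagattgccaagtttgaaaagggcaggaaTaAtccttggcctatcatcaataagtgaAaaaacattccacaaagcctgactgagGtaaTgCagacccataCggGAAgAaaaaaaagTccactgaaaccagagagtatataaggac
Mup21: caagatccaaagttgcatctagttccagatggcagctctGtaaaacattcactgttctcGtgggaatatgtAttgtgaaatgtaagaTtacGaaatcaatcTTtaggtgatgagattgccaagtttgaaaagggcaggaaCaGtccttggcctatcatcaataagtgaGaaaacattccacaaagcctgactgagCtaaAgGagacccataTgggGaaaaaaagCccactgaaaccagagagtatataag
Over 244 aligned bases, 228 were identical (93.4%), 16 differed, and 3 further positions were gaps. Both hold TATATA, starting 11 bases before the RefSeq start in Mup3 and 8 bases before it in Mup21.

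The RefSeq promoter table matched 5 of the 7 genes, each by 250 bases before and 50 after the start, and 7 motifs were searched in it on both strands. For Apoh the RefSeq start lies 51943 bp from the GENCODE gene start used for TE distances. For Mup3 and Mup21 these starts lie 25 and 22 bp apart, and their TATATA matches fall within the GENCODE transcripts. TATAAA was found in Sult2a5 (13.6% of 32851 promoters hold it) and TATATA in Mup3 and Mup21 (5.67%). GTTAAT was found at 2 places in Sult2a5 (7.10%), and TGTTTAC, the core of sites for the liver factor FOXA, in Apoh, 71 bases before the start (3.65%). AGGTCA, a core bound by many nuclear receptors, was found in Apoh and in Abcb11, 56 bases before its start (16.3%). CAAAGTCCA, a spelling of the HNF4 site (0.475%), and TTCNNNGAA, of STAT sites (8.30%), were found in none of the 5. TATAAA and TATATA can overlap each other, as can sites of the other motifs. The 5 promoters held 5 CpG dinucleotides in Apoh, 4 in Abcb11, 2 in Mup3, 2 in Mup21 and 0 in Sult2a5, against a median of 7 over all promoters. No motif was shared by all 5, and no listed TE copy overlapped any of the 5 windows.

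Abcb11 and Apoh differed in the copies inside them. Summed over the 18 listed copies within Abcb11, the het libraries had 14.8, 24.7 and 88.2 normalized counts and the KO libraries 94.4, 139 and 117. Every KO library was above every het library, though het replicate 3 came close, and 7 of the 18 copies (38.9%) had no het read, against 6.27% of all listed copies. The called copy in the window of Abcb11 was 334 bp long (chr2:69268386-69268719), on the opposite strand in an intron 73897 bp from the gene start, and also inside the antisense gene Gm13613. It had 0 in every het library and 27.7, 6.19 and 29.9 in KO, at least 6.78-fold higher against 3 reads in each het library. The tested copy nearest to the start of Apoh (chr11:108345470-108345811, 342 bp, intronic, opposite strand) went the other way. It had 24.3, 41.5 and 44.1 normalized counts in het and 14.3, 12.4 and 15.4 in KO and was not called (log2 fold change -1.28, SE 0.51, adjusted p = 0.127). From the RefSeq start of Apoh, the nearest listed copy was 15361 bp away. Summed over the window of Apoh, the listed copies had 220, 200 and 287 in het and 163, 281 and 115 in KO, with overlap, while the gene itself was 23.9-fold higher.

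Other genes of the liver were read from fixed lists, to see whether liver genes as a whole were higher. Of 20 hepatocyte plasma protein genes, 17 were tested by limma and none was called (1 had an unadjusted p under 0.05), with a median log2 fold change of -0.30 against -0.02 over all genes and 4.58 over the 5 tested genes described here. Alb, the gene of serum albumin, had 82.0, 75.3 and 102 normalized counts in het and 61.3, 10.3 and 103 in KO. Trf, the gene of transferrin, had the lowest p, with 1233 to 1814 in het and 382 to 994 in KO (log2 fold change -1.11, SE 0.35, adjusted p = 0.391). Ambp, Vtn and Alb followed with log2 fold changes of -1.07, -0.95 and -1.05 and adjusted p between 0.813 and 0.864. Apoc3 and Serpina1a had at most 7.92 normalized counts in any library.

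Summed over the 20 genes, the het libraries had 14304, 14412 and 13350 normalized counts and the KO libraries 11319, 10075 and 15377. The genotypes overlapped (exact permutation test, two-sided, p = 0.40; the smallest p possible with 3 against 3 is 0.1). Most of the sum was Afp, alpha-fetoprotein. Without it, the het sums were 4971, 4315 and 4696 and the KO sums 4245, 2264 and 4245, with every KO library below every het library (exact permutation test p = 0.1, the smallest possible). Of the 17 tested genes only 1, Trf, had every KO library below every het library by itself. Trf had the highest het mean of the 19 genes left, 1447 against 709 in KO. How far the separation of this sum rests on Trf was not tested. KO replicate 2, the lowest KO library for Abcb11 and Sult2a5, also had the lowest sum. Its part in their order was not tested.

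A list of 22 hepatocyte genes held transcription factors and nuclear receptors, and also Ghr, the growth hormone receptor gene. Of these 22, 20 were tested and none was called by limma (3 with an unadjusted p under 0.05, median log2 fold change -0.18). Hnf4a, a main regulator of hepatocyte genes, had 117 to 179 normalized counts in het and 78.5 to 140 in KO (log2 fold change -0.40, SE 0.35, adjusted p = 0.897). Nr1h4, the bile acid receptor FXR, which is known to activate Abcb11 in the liver, had 163 to 202 in het and 44.4 to 150 in KO (log2 fold change -0.99, SE 0.44, adjusted p = 0.723). Ppara and Ghr had log2 fold changes of -1.06 and -1.01, both with an adjusted p of 0.407.

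Among 19 bile acid genes, which stand beside Abcb11 and the Sult2a enzymes, 17 were tested and none was called by limma (2 with an unadjusted p under 0.05, median log2 fold change 0.04). In 4 of the 17 every KO library was above every het library, as in 7.17% of all genes tested. None of the 17 had every KO library below, against 5.57% of all genes tested. Slco1b2, an uptake transporter of the hepatocyte, had 30.5, 13.5 and 3.90 normalized counts in het and 122, 77.5 and 115 in KO. Every KO library was above every het library, with a log2 fold change of 2.99 (SE 0.67, adjusted p = 0.125). Cyp7b1, an oxysterol hydroxylase of the alternative bile acid pathway, had 125, 105 and 126 in het and 526, 154 and 421 in KO (log2 fold change 1.45, SE 0.44, adjusted p = 0.355). DESeq2 called both, and limma called Cyp7b1 once KO replicate 2 was left out. Baat and Abcb4 had log2 fold changes of 1.40 and 0.63 with adjusted p of 0.795 and 0.806.

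Of 15 genes listed with the apolipoproteins, among them the receptor gene Apobr, 10 were tested and none was called by limma (none with an unadjusted p under 0.05, median log2 fold change -0.11). Another list of 14 genes held other sulfotransferases and also Papss1 and Papss2, whose products make the sulfate donor. Of these 14, 10 were tested and none was called (2 with an unadjusted p under 0.05, median -0.09). Sult3a2 had 0.97 to 8.78 normalized counts in het and 11.9 to 43.1 in KO (log2 fold change 2.68, SE 0.91, adjusted p = 0.493), and Sult4a1 had a log2 fold change of 0.85 (SE 0.27, adjusted p = 0.398). No gene of the lists for red blood cells (7 tested, median -0.02), exocrine pancreas (14 tested, median -0.17) or intestine (13 tested, median -0.43) was called, with 0, 0 and 1 at an unadjusted p under 0.05 (limma).

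**Figure D4:**
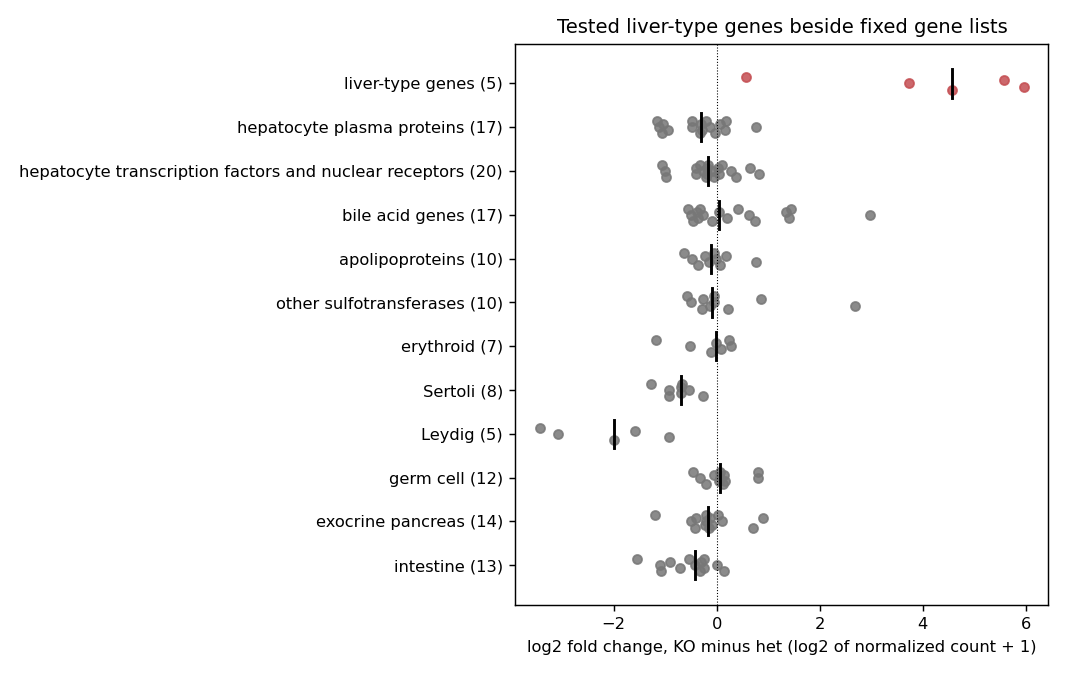
Log2 fold change, KO minus het, of each tested gene in the lists (number tested in brackets), with black bars at medians and the 5 tested liver-type genes in red. The median of the 5 is 4.58, and the medians of the other lists lie between -1.99 (Leydig) and 0.06 (germ cell).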

How the data were processed

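RNA libraries of 3 Morc1 (+/-) and 3 Morc1 (-/-) gonocyte samples at P0 were compared; the other 6 samples of the series, from postnatal day 3, were not analysed here. The low-input cDNA and library kits are those named in the labels. The submitters' processing notes name bcl2fastq 2.20, cutadapt 1.18, HISAT2 2.1.0, featureCounts 1.5.2, DESeq2 1.26.0 and the builds mm10 and GRCm38. The gene and repeat annotation, strand setting and treatment of reads that match several places are not given in the sources used here.

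Both deposited tables hold a normalized signal, read counts divided by a factor per library. For the gene table the authors used DESeq2, as its name says. The name of the TE table does not give its method. The values of both tables are called normalized counts. In each column 100% of the values were whole multiples of a step (tolerance 0.001), so reads were recovered. Every listed gene and copy had at least 10 reads over the 6 libraries. Of 35666 gene identifiers, 35560 matched GENCODE M21. Reads carry no molecular identifiers here, so a floor of 3 reads covers counting error only.

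The tests used limma 3.58.1 (R 4.3.3; two-sided, eBayes with a trend) on the log2 of the normalized count plus 1, for genes and copies whose mean reached 10, with Benjamini-Hochberg adjustment over all features tested and a threshold of 0.05. The pseudocount of 1 understates the change of low features. Folds between means use normalized counts without a pseudocount. A count test with edgeR was planned for TE copies in case of raw counts; since the values are normalized, limma was used, and edgeR 4.0.16 and DESeq2 1.42.0 on recovered reads were alternatives. Other alternatives were pseudocounts of 0.1 and 10, minimum means of 1 and 50, no trend, quantile normalization, leaving out each library, a replicate block, other windows, and the gene table's size factors for TE copies. Transcripts were compared with BLAST+ 2.17.0.

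The 7 genes, the gene lists and the tests were chosen with earlier results of these data known, and the motifs and printed stretches after the values of the 7 genes were known. Named besides the 7 genes are the measured Mup and Sult2a genes; at most the 2 nearest tested protein-coding neighbours on each side; per gene the called TE copies, at most the 4 nearest to its start, and the nearest tested copy; at most 4 genes of lowest p per list; the 5 genes most alike; and Morc1.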

Additional observations from a re-analysis of the deposited data

How the results depend on the processing

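The 7 genes were picked from this contrast, so their calls under other settings restate that choice and support nothing: Apoh, Abcb11, Mup3 and Sult2a5 were called higher in KO under each of 15 alternatives, and Sult2a1 under none of 14. Over 74 comparisons of the 5 tested genes with their alternatives the direction was kept in 73, the exception being Sult2a1 without KO replicate 3. With a pseudocount of 10 the log2 fold changes of Mup3 and Sult2a5 were 5.08 and 4.89. The number of genes called higher in KO was 112, and became 70 with a pseudocount of 0.1, 177 with a pseudocount of 10 and 400 with DESeq2, and lay between 17 and 105 when a library was left out. The 12 TE copies called higher became 2 with a minimum mean of 50, 4 in a window of 10 kb and 7 in a window of 50 kb, and lay between 5 and 14 when a library was left out. Over 415 comparisons of the 29 copies, 27 lost a call, 10 gained one and none reversed a call. Quantile normalization and the gene table's size factors moved the median over all tested copies (log2 fold change) from 0.03 to -0.41 and to 0.38, and 8 and 16 copies were then called. In the fixed lists 0 genes were called, 3 with DESeq2 (Cyp7b1, Slco1b2 and the Sertoli gene Clu), 0 with edgeR, and 0 to 1 when a library was left out. Depth limits Mup21 and Mup20, seen in at most 32 reads per library. The sum of hepatocyte genes without Afp was added after seeing the data.

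Het and KO libraries share replicate numbers in their titles. Deviations of same-numbered libraries correlated at 0.14, -0.16 and -0.04, and 1 of 3 het libraries correlated best with its own number, so the numbers were not taken as pairs. With a replicate block 64 genes were called higher in KO, with Apoh, Abcb11, Mup3 and Sult2a5 among them, and 9 TE copies near the 7 genes. The cause of these changes was not tested.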
